A study of Homo sapiens with 6 samples.

Results

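MHC class I molecules carry peptides from inside a cell to its surface, where T cells and natural killer cells read them. The 9 genes described here are the class I heavy chains *HLA-B*, *HLA-C*, *HLA-E* and *HLA-F*, the light chain *B2M*, the peptide transporter subunits *TAP1* and *TAP2*, the loading factor *TAPBP* and the transactivator *NLRC5*. They were taken from the count table by a rule on gene symbols that uses no measured value, and are 9 of the 26485 genes listed. The choice of these genes was nevertheless made with earlier results of these data known. None of the 9 passed the test between *HSALNG0134318* knockdown and control cultures. Of their log2 fold changes, 8 were below 0 and 1 was above, with a median of -0.20 against -0.02 over all genes tested. Over all genes tested, 7837 were below 0 and 7040 above. The median of the 9 rested in part on 1 culture, since without control replicate 2 it was -0.08 and *HLA-C* turned to 0.10.

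RNA-seq was performed on HEK293 cells, an established line derived from human embryonic kidney, after knockdown of the long noncoding RNA *HSALNG0134318* and in negative controls, with 3 cultures of each. The labels give the genotype of the first group as *HSALNG0134318* knockdown and that of the second as WT. Knockdown was by transient transfection with a Smart Silencer, which mixes small interfering RNAs with antisense oligonucleotides, and the reagent was Lipofectamine RNAiMAX. What the control cultures were transfected with is not named in the labels, so a part of any difference due to transfected RNA itself cannot be told apart from the knockdown. Knockdown replicates 1, 2 and 3 were the cultures KD-1, KD-4 and KD-5, and control replicates 1, 2 and 3 were NC-10, NC-11 and NC-1. The series describes them as biological replicates, and all 6 cultures are of 1 cell line.

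Total counts ran from 13900965 to 16869948 per culture, and 14877 genes had enough counts to be tested, all 9 class I genes among them. *HSALNG0134318* itself is not listed in the table used here, so the labels could not be checked with the targeted transcript. Of the kidney epithelial markers, *KRT8*, *EPCAM* and *KRT18* were the most abundant in the controls. They measured 435 ± 49.4, 121 ± 9.8 and 96.2 ± 18.7 counts per 1000000 counts (CPM) there (SD, n = 3). *LHX1*, *CDH1* and *PAX2* measured 28.0 ± 4.1, 20.4 ± 2.0 and 9.50 ± 3.35 CPM in the controls. *PAX8* and *CDH16* stayed under 1 CPM in all cultures. The 8 leukocyte markers summed to between 4.02 and 5.13 CPM in the knockdown and to between 4.27 and 6.17 CPM in the control cultures. *CD3E* was at 0 counts in all 6 cultures. None of the tested kidney (6), leukocyte (2) or fibroblast (2) markers was called, and the 1 tested endothelial marker, *KDR*, was lower at 3.28 ± 0.931 against 5.91 ± 0.226 CPM (adjusted p 0.044 in edgeR's quasi-likelihood test with Benjamini-Hochberg adjustment, and up to 0.18 with 1 culture left out). Control replicate 2 stood apart for the class I genes, and the log2 fold changes and list medians are given with and without it.

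In the class I pathway, cytosolic peptides made by the proteasome enter the endoplasmic reticulum through the TAP1-TAP2 transporter. There a newly folded heavy chain, paired with beta-2-microglobulin, is held next to the transporter by tapasin, the product of *TAPBP*, until it binds a peptide and can leave for the surface. Nearly all nucleated cells make class I molecules, and interferons raise the transcription of the whole pathway. *NLRC5* is recruited to an upstream module known as SXY, whose X2 box binds CREB and ATF factors and whose Y box binds NF-Y. *HLA-B* and *HLA-C* are classical, highly polymorphic heavy chains, while *HLA-E* and *HLA-F* vary little and are read mainly by receptors of natural killer cells.

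Of the 9 genes, 7 lie in the MHC region of chromosome 6 and 2 lie elsewhere (hg38, GENCODE release 44). *HLA-F* spans chr6:29722775-29738528 and *HLA-E* chr6:30489509-30494194, both on the plus strand. On the minus strand follow *HLA-C* at chr6:31268749-31272130 and *HLA-B* at chr6:31353872-31367067. The loading genes come next, also on the minus strand, with *TAP2* at chr6:32821833-32838739, *TAP1* at chr6:32845209-32853816 and *TAPBP* at chr6:33299694-33314284. *B2M* is at chr15:44711358-44718851 and *NLRC5* at chr16:56989485-57083531, both on the plus strand. All 9 are annotated as protein-coding genes.

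The stretches that follow show the letters through which interferon and SXY control of these genes is usually read. They come from RefSeq promoters (GRCh38.p14), which held 8 entries for 7 of the 9 genes, with *TAP1* represented by 2 and none for *HLA-E* or *NLRC5*. In the 250 bases before each start, both strands were searched for GAAANNGAAA, the core of an interferon-stimulated response element (ISRE), for the shorter form GAANNGAAA, for TGACG (X2 core) and for ATTGG (Y box). Capitals mark the matches, which read as the reverse complement where the motif lies on the opposite strand. The *B2M* and *HLA-C* stretches mark all of these motifs, and the others mark the ISRE core only.
*B2M*, chr15:44711368-44711477, plus strand: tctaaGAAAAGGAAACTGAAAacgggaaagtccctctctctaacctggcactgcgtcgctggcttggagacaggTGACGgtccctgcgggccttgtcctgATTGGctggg
*HLA-C*, chr6:31272139-31272289, minus strand: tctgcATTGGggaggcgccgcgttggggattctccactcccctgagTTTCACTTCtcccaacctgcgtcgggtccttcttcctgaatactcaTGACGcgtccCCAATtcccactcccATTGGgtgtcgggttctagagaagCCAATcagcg
*HLA-B*, chr6:31357321-31357339, minus strand: ctgagTTTCACTTCttctc
*HLA-F*, chr6:29723273-29723292, plus strand: cagagTTTCTCTTTCtctcc
*TAP2*, chr6:32838783-32838807, minus strand: ctgggGAAGCGAAAGCGAAAgctgc
*TAP1*, chr6:32853818-32853843, minus strand: gccgcTTTCGATTTCGCTTTCcccta
*TAPBP*, chr6:33314079-33314103, minus strand: tggagGAAAGTGAAAGTGAAAggag

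The longer ISRE core was present in *B2M*, *HLA-F*, *TAP2*, *TAP1* and *TAPBP*, and 3.02% of 35116 promoters held it. For *TAP1* only the entry shown above held it, and the other entry held none of the motifs searched. *HLA-B* and *HLA-C* held only the shorter form, which 6.56% of promoters held and which is not contained in the longer one. In *TAP2* both forms overlap, and in *B2M*, *TAP1* and *TAPBP* 2 copies of the longer core overlap. The X2 core occurs in 21.2% of promoters and the Y box in 32.0%, so neither alone singles out a gene. An X2 core followed on the same strand by a Y box within 30 bases was found in 0.854% of promoters, among them those of *B2M*, *HLA-C* and *HLA-B*, with 21, 20 and 20 bases from the X2 core to the nearest such Y box. For *HLA-B* the X2 core lies in aggatactcgTGACGcgtccccact (chr6:31357271-31357295, minus strand). *HLA-F*, *TAP1*, *TAP2* and *TAPBP* had no such pair in this window. These are matches of letters, and no binding was measured.

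Per length of the canonical transcript, *HLA-C* and *B2M* were the most abundant of the 9 in every culture. In the controls *HLA-C* stood at 245 ± 42.3 and *B2M* at 209 ± 41.7 CPM per kilobase (SD, n = 3). *HLA-B* followed at 69.1 ± 13.8 and *HLA-E* at 36.3 ± 2.56 CPM per kilobase. The loading genes *TAPBP*, with 17.8 ± 0.844, and *TAP1*, with 17.2 ± 2.02 CPM per kilobase, lay beside each other. *HLA-F* came next at 13.1 ± 2.65 CPM per kilobase. *TAP2* at 7.67 ± 0.809 and *NLRC5* at 1.90 ± 0.185 CPM per kilobase were the lowest. Taken over all 6 cultures, the ranges of *HLA-C* and *B2M* overlapped, as did those of *TAPBP* and *TAP1* and those of *TAP1* and *HLA-F*, while every other pair of neighbours in this order was separate. Within a culture, *HLA-C* exceeded *B2M* by 1.14 to 1.52 times and *TAP1* exceeded *HLA-F* by 1.16 to 1.61 times, whereas the *TAPBP* to *TAP1* ratio ran from 0.933 to 1.30. The letters of the heavy chains are similar, and between 1.68% (*HLA-F*) and 6.77% (*HLA-C*) of 50-base windows of their transcripts also occur in another class I transcript, so reads from those windows cannot be assigned to 1 chain with certainty.

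**Figure D1:**
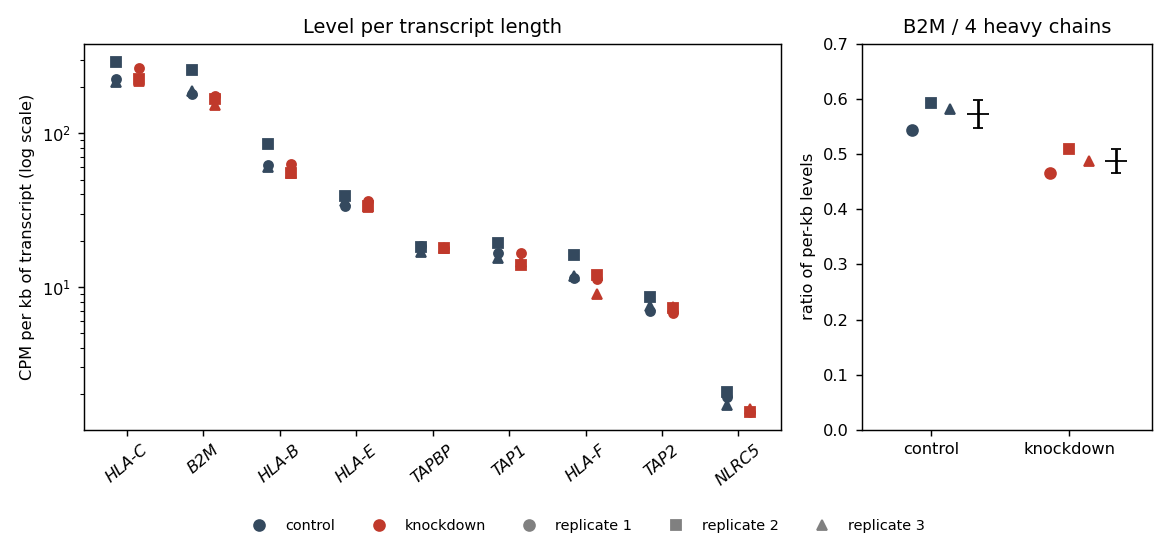
Left, level of each gene per kilobase of transcript (CPM per kb, log axis) in the 3 control (dark) and 3 knockdown (red) cultures, from *HLA-C* at 216 to 294 down to *NLRC5* at 1.52 to 2.07. Right, *B2M* divided by the sum of *HLA-B*, *HLA-C*, *HLA-E* and *HLA-F* per kilobase in each culture, with mean and SD (bars), where the control cultures lie at 0.544 to 0.592 and the knockdown cultures at 0.465 to 0.509.

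*B2M*, the light chain that every class I molecule needs, had the lowest p of the 9. It measured 165, 158 and 145 CPM in knockdown replicates 1, 2 and 3 and 171, 242 and 177 CPM in control replicates 1, 2 and 3. The groups did not overlap, but the highest knockdown and the lowest control culture were close, and control replicate 2 was far above the other controls. The means were 156 ± 9.96 and 197 ± 39.3 CPM (SD, n = 3 each), and the log2 fold change was -0.34 with a 95% interval of -0.62 to -0.06. This corresponds to 0.792-fold the control level, with an interval of 0.652 to 0.962. *B2M* did not pass, with an adjusted p of 0.12 in edgeR's quasi-likelihood test with Benjamini-Hochberg adjustment over all genes tested. Without control replicate 2 the log2 fold change was -0.16, with an interval of -0.33 to 0.01. In RNA from whole cultures, fewer cells expressing a gene and less RNA of it per cell cannot be told apart.

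*HLA-B* gives the classical heavy chain that many T cell responses to viruses use. It measured 96.8, 85.2 and 84.4 CPM in the knockdown cultures and 95.8, 130.5 and 92.2 CPM in the controls. Knockdown replicate 1 was above 2 of the 3 controls, so the groups overlapped. The log2 fold change was -0.26 (95% interval -0.55 to 0.03) with an adjusted p of 0.23 in edgeR's quasi-likelihood test with Benjamini-Hochberg adjustment. Without control replicate 2 it was -0.08 (-0.27 to 0.11). *HLA-B* is also the one gene of the 9 whose call depended on the settings, since correcting the libraries for the GC content and length of transcripts moved it to -0.23, where the adjusted p was 0.042, the lowest of 0.042 to 0.59 over the 14 alternatives (edgeR, Benjamini-Hochberg). Under that correction 19.7% of genes were called, against 10% without it.

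*HLA-C*, the heavy chain that natural killer cells read through their KIR receptors, was the most abundant. It measured 410, 350 and 338 CPM in the knockdown and 349, 453 and 332 CPM in the control cultures. The range of the knockdown cultures lay inside that of the controls, with the highest value in control replicate 2 and the lowest in control replicate 3. The log2 fold change was -0.05 (95% interval -0.32 to 0.23), and it turned to 0.10 (-0.08 to 0.29) without control replicate 2. The adjusted p was 0.85 in edgeR's quasi-likelihood test with Benjamini-Hochberg adjustment. The sign of *HLA-C* thus changed with the culture left out.

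*HLA-E*, which presents leader peptides of other class I chains to the CD94-NKG2 receptors, measured 92.0, 85.6 and 84.1 CPM in the knockdown and 86.1, 99.1 and 92.3 CPM in the control cultures. The groups overlapped, and the log2 fold change was -0.08 (95% interval -0.29 to 0.12), or -0.03 (-0.22 to 0.15) without control replicate 2. *HLA-F*, a heavy chain that can reach the surface without peptide, measured 16.5, 17.7 and 13.3 CPM in the knockdown and 17.0, 23.9 and 17.3 CPM in the control cultures. Knockdown replicate 2 lay above 2 of the 3 controls. The log2 fold change of *HLA-F* was -0.29 (95% interval -0.67 to 0.08), or -0.11 (-0.42 to 0.20) without control replicate 2. Neither passed, with adjusted p of 0.60 for *HLA-E* and 0.30 for *HLA-F* in edgeR's quasi-likelihood test with Benjamini-Hochberg adjustment.

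**Figure D2:**
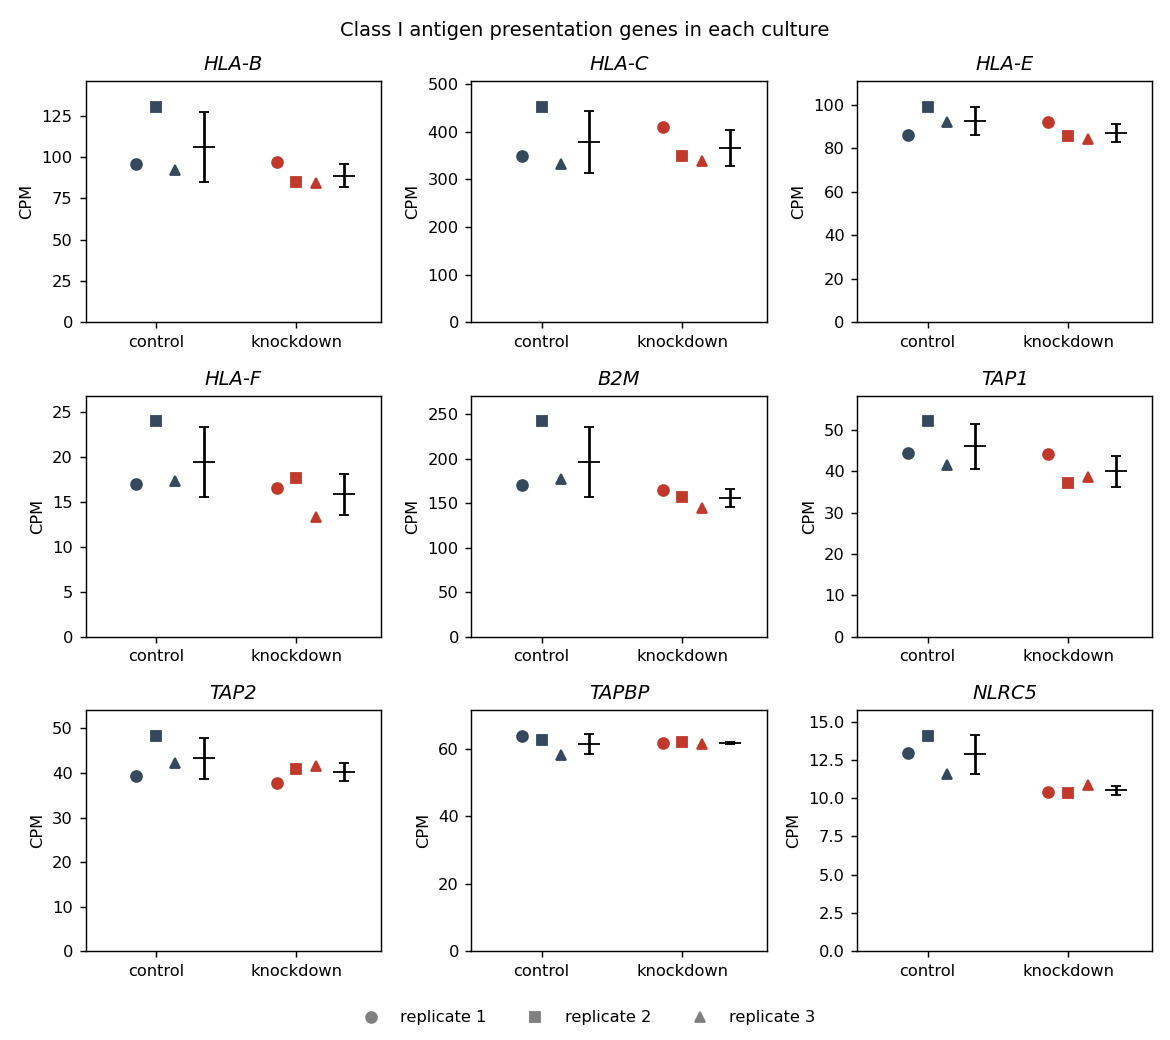
CPM (y axis, from 0) of each of the 9 genes in control (dark) and knockdown (red) cultures, with symbols for replicates and bars for mean ± SD (n = 3). Control replicate 2 (dark square) is the highest point in 8 of the 9 panels, *TAPBP* being the exception, and the groups are separate for *B2M* and *NLRC5*.

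*TAP1* and *TAP2* form the peptide transporter. *TAP1* measured 44.3, 37.1 and 38.8 CPM in the knockdown and 44.4, 52.1 and 41.6 CPM in the control cultures, with knockdown replicate 1 among the controls. *TAP2* measured 37.9, 41.0 and 41.7 CPM in the knockdown and 39.3, 48.3 and 42.3 CPM in the control cultures, and here knockdown replicate 1 was the lowest of the 6. The log2 fold changes were -0.20 (95% interval -0.47 to 0.06) for *TAP1* and -0.11 (-0.36 to 0.14) for *TAP2*. Without control replicate 2 they were -0.10 (-0.33 to 0.13) and -0.02 (-0.24 to 0.20). Neither subunit passed, with adjusted p of 0.32 for *TAP1* and 0.58 for *TAP2* in the same edgeR test. Their ratio per kilobase, *TAP1* to *TAP2*, was 2.11 ± 0.307 in the knockdown and 2.24 ± 0.152 in the control cultures, and overlapped between the groups.

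*TAPBP* encodes tapasin, which bridges the transporter and the empty heavy chain. It was the most even of the 9, at 61.6, 62.1 and 61.4 CPM in the knockdown and 63.7, 62.4 and 58.1 CPM in the control cultures. All 3 knockdown values lay inside the range of the controls. The log2 fold change was 0.01, with a 95% interval of -0.20 to 0.21 and an adjusted p of 0.97 in edgeR's test, and it was 0.02 without control replicate 2. The sign of *TAPBP* turned to -0.02 under the correction for GC content and length and to -0.03 without control replicate 3.

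*NLRC5*, the transactivator of class I genes, was the least abundant and the second gene whose groups did not overlap. It measured 10.4, 10.3 and 10.9 CPM in the knockdown and 12.96, 14.1 and 11.6 CPM in the control cultures. The knockdown cultures were close together, at 10.5 ± 0.284 CPM, below 12.9 ± 1.25 CPM in the controls (SD, n = 3 each). The log2 fold change was -0.29 (95% interval -0.61 to 0.03), with an adjusted p of 0.23 in edgeR's quasi-likelihood test with Benjamini-Hochberg adjustment. Without control replicate 2 it was -0.22 (-0.54 to 0.10).

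As a group, 0 of 9 class I genes were called by edgeR at an adjusted p under 0.05, against 10% of all genes tested (4.64% lower and 5.4% higher). DESeq2 and limma-voom also called 0 of the 9. At an unadjusted p under 0.05, *B2M* alone passed, 1 of 9, where 26.9% of all genes did. In 2 of 9, *B2M* and *NLRC5*, every knockdown culture was below every control, where 15.8% of all genes showed this and 32.2% did not overlap in either direction. With 9 genes, none of these counts stands apart from the background. Without control replicate 2, 16.7% of genes were called, and still 0 of the 9. The 95% intervals of the 9 log2 fold changes lay between -0.67, the lower bound of *HLA-F*, and 0.23, the upper bound of *HLA-C*.

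**Figure D3:**
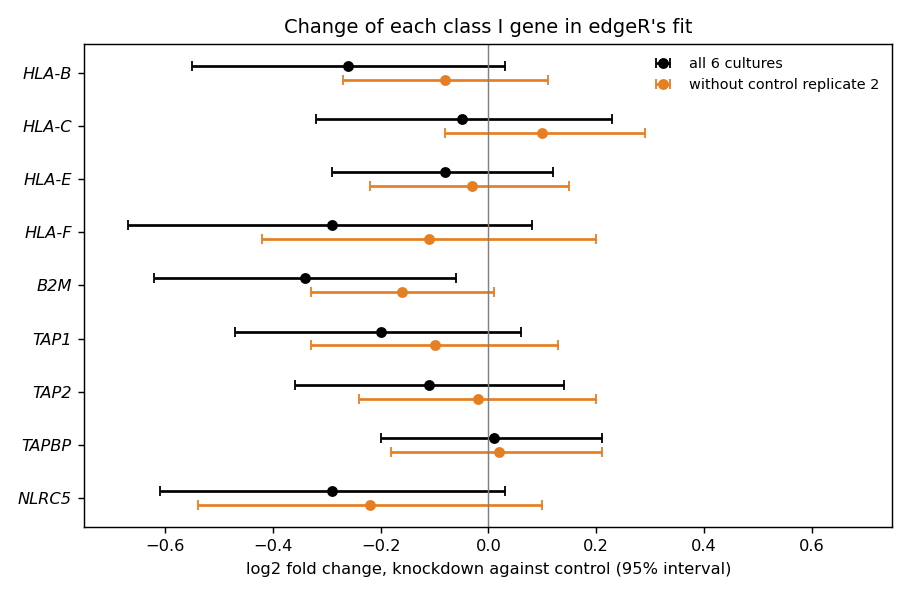
Log2 fold change (x axis, knockdown against control) of each of the 9 genes with its 95% interval in edgeR's fit, from all 6 cultures (black) and without control replicate 2 (orange). Only the black interval of *B2M* (-0.62 to -0.06) lies wholly below 0, and without control replicate 2 it reaches 0.01.

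Control replicate 2 moved with most of these values. It was the highest of the 6 cultures for 8 of the 9 genes, which holds for 27.0% of all genes tested. Its log2 excess over the other 2 controls was 0.48 for *HLA-F*, 0.47 for both *HLA-B* and *B2M* and 0.41 for *HLA-C*, against 0.04 for *TAPBP*. The median over the 9 was 0.28, above the upper quartile of all genes tested at 0.25, and the median log2 fold change of the 9 was -0.08 instead of -0.20 without this culture. The transcripts of the 9 hold 55.1% to 60.1% G and C, except *TAP2* with 48.9% and *B2M* with 39.1%, against a median of 48.7% over all genes tested. After each library was corrected for its trend with GC content and length, the excess was 0.15 for *HLA-B*, 0.06 for *HLA-C*, 0.01 for *HLA-E* and 0.18 for *HLA-F*, where the quartiles of all genes were -0.16 and 0.15. For *B2M* it was 0.51 after the correction and for *TAP2* 0.30. The heavy chains thus lost most of their excess in this culture under the correction, and *B2M* and *TAP2* did not. Of the 15 tested genes of the interferon and NF-kappaB list described further on, 10 were at their highest in this culture. The median log2 excess of that list, without the correction, was 0.23, under the upper quartile of all genes tested at 0.25. Not all of its genes were high there, and *IFNGR1* measured 45.6 CPM against 49.5 and 47.9 CPM in control replicates 1 and 3. *PSMB9*, an inducible proteasome subunit, had 34 counts in control replicate 2 and 4 to 9 in the other cultures, and *SOCS1*, an inhibitor of interferon signalling, had 35 counts there and 0 to 11 elsewhere. The other inducible subunit given here, *PSMB8*, had 14 counts in control replicate 2 and 3 to 15 in the other cultures, with the most in knockdown replicate 1. This comparison of control replicate 2, with *PSMB8*, *PSMB9* and *SOCS1*, was chosen after its values were seen, and what set the culture apart was not tested.

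Ratios between the genes of 1 culture do not depend on how that library was scaled. The summed heavy chains (*HLA-B*, *HLA-C*, *HLA-E* and *HLA-F*) per kilobase were 376, 328 and 316 in the knockdown and 334, 434 and 324 in the control cultures, and overlapped. *B2M* relative to this sum was 0.465, 0.509 and 0.487 in the knockdown and 0.544, 0.592 and 0.581 in the control cultures. Here the groups were separate, at 0.487 ± 0.0221 against 0.572 ± 0.0255 (SD, n = 3 each), and control replicate 2 was close to control replicate 3. Within the heavy chains, *HLA-C* made up 70.7%, 69.2% and 69.4% of the sum in the knockdown and 67.8%, 67.7% and 66.6% in the control cultures. *HLA-B* made up 16.8%, 16.9% and 17.4% in the knockdown and 18.7%, 19.6% and 18.6% in the control cultures. Against single heavy chains, *B2M* per kilobase was separate between the groups relative to *HLA-C* and *HLA-E* and overlapped relative to *HLA-B*, at 2.86 ± 0.130 in the knockdown and 3.02 ± 0.111 in the control cultures, and relative to *HLA-F*, at 15.6 ± 1.595 and 15.9 ± 0.126. The shares of *HLA-C* were higher and those of *HLA-B* lower in every knockdown culture, whereas the shares of *HLA-E* and *HLA-F* overlapped. Under the correction for GC content and length the log2 fold changes were -0.26 for *B2M*, -0.27 for *HLA-F*, -0.23 for *HLA-B*, -0.10 for *HLA-E* and -0.02 for *HLA-C*. These ratios and shares have terms in common, as *HLA-C* made up most of the sum, so they are not separate observations. For single genes, the groups did not overlap in 32.2% of all genes tested. The ratios were chosen after the values were seen and were not tested. With 3 cultures against 3, the smallest p of an exact two-sided permutation test is 0.1.

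By the root mean square difference of centred log2 CPM over the 6 cultures, 3 genes among 11286 candidates with a mean of at least 100 counts followed *B2M* most closely. They were *UBL4A*, a factor in inserting tail-anchored proteins, and *IMPDH1*, an enzyme of guanine nucleotide synthesis, both at a distance of 0.03, and *MYL12B*, a myosin light chain, at 0.037. *UBL4A* measured 62.7, 63.3 and 58.0 CPM in the knockdown and 67.8, 93.1 and 68.7 CPM in the control cultures, and like *B2M* was highest in control replicate 2. The other class I genes described here were left out of the candidates, so their absence from the 3 is not a result. None of the 3 passed the test, with adjusted p of 0.099 to 0.14 in edgeR's quasi-likelihood test with Benjamini-Hochberg adjustment. The 3 were chosen for following *B2M* over these cultures, so such adjusted p and the peak in control replicate 2 come with the choice.

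Beside the 9 genes, 7 lists of genes around class I presentation were read from the same fit, in which 4.64% of all genes tested were called lower and 5.4% higher. Without control replicate 2, the counts of 3 of these lists changed, to 2 lower and 1 higher for the SXY factors, 3 lower and 0 higher for the interferon and NF-kappaB list and 2 lower and 1 higher for degradation and turnover. More genes were called in that fit as a whole, 1238 lower and 1274 higher of 15083 tested, or 16.7% in either direction. The list medians also moved, in the order in which the lists follow here, to -0.04, 0.09, -0.02, -0.06, -0.17, -0.35 and -0.13 without this culture. The list nearest to the 9 genes, other class I and class I-like heavy chains, had 13 of its 14 listed genes tested, 3 called lower and 0 higher, with a median log2 fold change of -0.15. The 3 were *MICA*, *MICB* and *ULBP3*, which bind no peptide but are ligands of the activating receptor NKG2D on natural killer cells. The list also holds the NKG2D ligands *ULBP1* and *ULBP2*, which were not called and whose groups overlapped. Their log2 fold changes were -0.15 and 0.17, with adjusted p of 0.39 and 0.59 in edgeR's quasi-likelihood test with Benjamini-Hochberg adjustment. *MICB* measured 37.2, 32.2 and 33.0 CPM in the knockdown and 59.3, 59.7 and 51.4 CPM in the control cultures, a log2 fold change of -0.73 (95% interval -0.98 to -0.49) with an adjusted p of 0.0023 in edgeR's quasi-likelihood test with Benjamini-Hochberg adjustment. *MICA* measured 41.6, 36.8 and 32.6 CPM in the knockdown and 52.0, 68.7 and 51.8 CPM in the control cultures. Its log2 fold change was -0.64 and its adjusted p 0.016 in the same test. *ULBP3*, at 7.78 ± 0.556 against 12.2 ± 1.86 CPM (SD, n = 3 each), fell by 0.65 on the log2 scale, with an adjusted p of 0.033 in edgeR's test. *MICA* and *MICB* lie in the MHC region too, between *HLA-B* and the loading genes. All 3 called genes had knockdown cultures below every control, which 15.8% of all genes tested showed. Since the 3 were picked as called lower, this separation comes largely with the choice and adds no support. *MICB* was called under all 14 alternatives. *MICA* was lost without knockdown replicate 2 (adjusted p 0.07) or 3 (0.09), and *ULBP3* when any 1 knockdown culture or control replicate 1 or 3 was left out, with an adjusted p of up to 0.15 in edgeR's test.

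In the list for peptide trimming and folding in the endoplasmic reticulum, 0 of 10 tested genes were lower and 2 were higher, with a median log2 fold change of 0.14. *GANAB*, the catalytic subunit of glucosidase II that trims glycans of new heavy chains among many other proteins, measured 663, 577 and 574 CPM in the knockdown and 190.5, 222 and 226.5 CPM in the control cultures. It rose 2.84-fold (95% interval 2.43 to 3.32), with an adjusted p of 3.2e-05 in edgeR's quasi-likelihood test with Benjamini-Hochberg adjustment, and was called under all 14 alternatives. *CALR*, the chaperone calreticulin of the peptide-loading complex, measured 1118, 1041 and 998 CPM in the knockdown and 673, 716 and 922 CPM in the control cultures. *CALR* rose 1.37-fold (1.14 to 1.64), with an adjusted p of 0.037 in edgeR's test, and lost the call when any 1 knockdown culture or control replicate 1 was left out (up to 0.15). The 4 tested genes of the immunoproteasome and PA28 list included 0 called in either direction, with a median log2 fold change of -0.13, or -0.02 without control replicate 2, the culture in which all 4 were highest. Its most abundant genes were *POMP*, at 53.7 ± 2.01 in the knockdown and 58.0 ± 5.90 CPM in the control cultures, and *PSME1*, at 54.6 ± 1.99 and 56.9 ± 3.87 CPM, with *POMP* above *PSME1* only in control replicate 2. The inducible proteasome subunits *PSMB8* and *PSMB9* were too low to be tested.

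Of the factors that assemble on the SXY module, 8 of 9 were tested, with 0 lower, 1 higher and a median log2 fold change of -0.10. *ATF1*, a CREB-family factor of the kind that binds the X2 letters shown above, rose from 21.7 ± 2.75 to 34.6 ± 5.01 CPM, a log2 fold change of 0.67 with an adjusted p of 0.014 in edgeR's quasi-likelihood test with Benjamini-Hochberg adjustment. The call of *ATF1* was lost without knockdown replicate 2 (0.088) or 3 (0.058). *CREB1*, another factor of this kind in the list, was lower in the knockdown, at 71.7 ± 10.1 against 95.4 ± 11.1 CPM. Its log2 fold change was -0.41 with an adjusted p of 0.058 in edgeR's test, and it was called under 4 of the 14 alternatives. Of the 8 tested genes, 5 had a log2 fold change below 0 and 3 above. In the interferon and NF-kappaB list, 2 of 15 tested genes were lower and 0 higher, with a median of -0.22. *IFNGR1*, the ligand-binding chain of the interferon gamma receptor, fell from 47.7 ± 1.95 to 35.1 ± 2.32 CPM, a log2 fold change of -0.44 with an adjusted p of 0.023 in edgeR's test. *IFNGR1* lost the call when any 1 knockdown culture or control replicate 1 was left out, with an adjusted p of up to 0.10, and also under the replicate block (0.054).

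Class II genes, which present to helper T cells and normally mark professional antigen-presenting cells, had 1 of 10 tested genes lower and 0 higher, with a median log2 fold change of -0.54. The low gene was *HLA-DRB1*, at 4.50 ± 0.546 against 7.72 ± 1.39 CPM, with an adjusted p of 0.032 in edgeR's quasi-likelihood test with Benjamini-Hochberg adjustment, and it lost the call when any 1 knockdown culture was left out (up to 0.14). *HLA-DRA*, the partner chain that *HLA-DRB1* needs at the surface, was at 0 counts in all 6 cultures. Since *HLA-DRB1* shares sequence with its paralogs, its counts are uncertain. Of the genes for degradation and surface turnover of class I, 11 were tested, with 1 lower, 1 higher and a median of -0.21. *RNF139*, a ubiquitin ligase of the endoplasmic reticulum, fell by 0.41 on the log2 scale (adjusted p 0.031 in edgeR's test). *WWP2*, a HECT-type ubiquitin ligase, rose by 0.42 on the log2 scale (adjusted p 0.046). *RNF139* lost the call under the replicate block (0.093), and both lost it when any 1 knockdown culture or control replicate 1 was left out, at up to 0.13 for *RNF139* and 0.18 for *WWP2*.

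**Figure D4:**
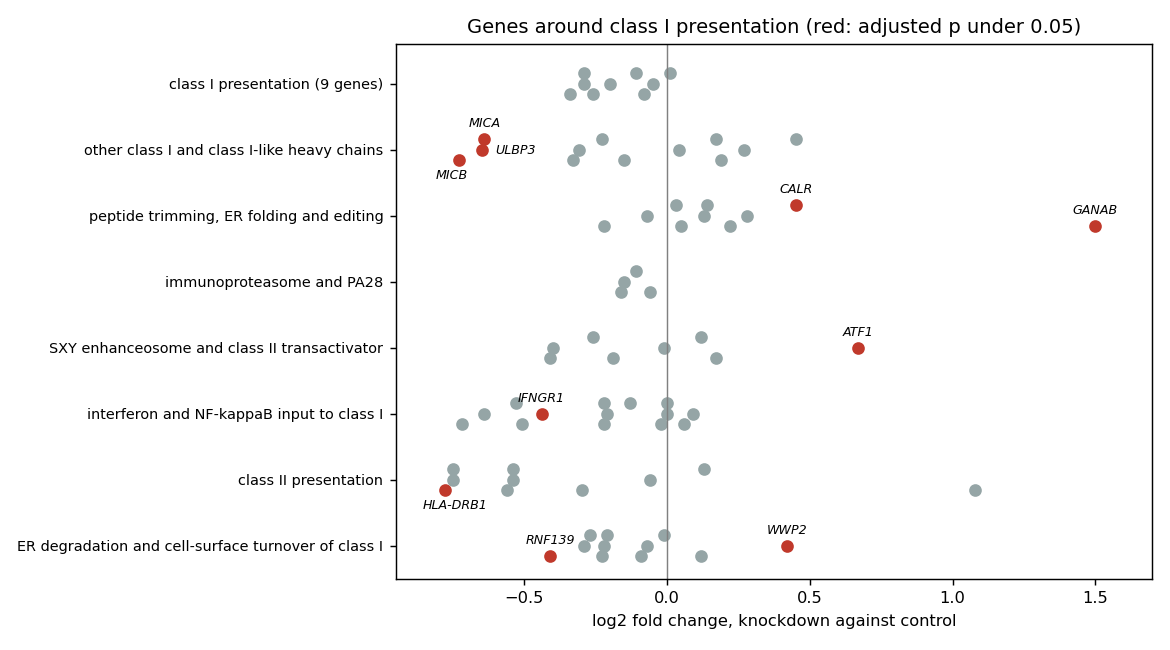
Log2 fold change (x axis, knockdown against control) of the 9 genes and of the tested genes reported here from 7 lists around them, with genes at an adjusted p under 0.05 in red and named, and vertical offsets only for legibility. The 9 class I genes sit between -0.34 and 0.01 with none in red, while *GANAB* is the red point farthest to the right and *MICB* lies at -0.73.

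Reads of some of these genes could not be assigned with certainty. Exons of *HLA-F* overlap those of the antisense *HLA-F-AS1* over 535 bases (12.4% of its exonic length), and those of *TAP1* overlap *PSMB8-AS1* over 672 bases (14.2%), and both partners are counted in the table. Other annotated partners are not listed in the table. They include the pseudogene *DHFRP2* on the strand of *HLA-B* (1421 bases, 30.7%), an unnamed coding gene on the strand of *TAP2* (2023 bases, 19.5%) and an antisense transcript of *TAPBP* (1397 bases, 21.0%). The libraries were prepared with a stranded kit, but whether counting used the strand is not given in the sources used here, so reads from the 2 strands cannot be told apart at these exons. *B2M*, *HLA-C*, *HLA-E* and *NLRC5* overlap no other annotated exon.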

How the data were processed

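RNA-seq of polyA RNA was available for 6 HEK293 cultures as 1 table of 26485 gene symbols. The authors deposited raw read counts for each gene, neither normalized nor pooled. Per the study's methods and the submitters' processing notes, the authors checked reads with FastQC 0.11.9, trimmed them with Trim Galore 0.6.6, removed ribosomal RNA with SortMeRNA, aligned them with STAR 2.7.9a to hg38 and counted them with featureCounts 2.0.1. The study's methods name other releases of the aligner and counter. The gene annotation, strand setting and handling of multi-mapping reads are not given in the sources used here.

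Groups and replicate numbers came from the sample labels. Genes were filtered with filterByExpr, scaled by TMM and tested with the robust quasi-likelihood test of edgeR 4.0.16 in R 4.3.3, with knockdown against control as the only term. P values were adjusted by Benjamini-Hochberg over the 14877 genes tested, and genes under 0.05 were called. The biological coefficient of variation was 12.4%. CPM are counts per 1000000 counts of the effective library size, and log2 CPM used a prior count of 2. With 3 cultures a group, single values allow no exact permutation p under 0.1. P values set the group difference against the variation between these cultures of 1 line, which edgeR estimates in part across genes. Scripts were tested on simulated data.

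The 9 genes and all lists were chosen with earlier results of these data known. Named genes were the 9, of each other list its called genes (at most 4) or otherwise its most abundant gene, and the 3 genes most like the class I gene with the smallest p. Some genes are counted in their lists but not reported here. *PSMB8*, *PSMB9*, *PSME1*, *SOCS1*, *CREB1*, *HLA-DRA*, *ULBP1*, *ULBP2* and the cell type markers were named beside the rule. Alternatives were DESeq2 size factors, library sizes alone, no filter or a minimum of 10 counts in each culture, a block for replicate number, the DESeq2 1.42.0 Wald test, limma-voom (limma 3.58.1), loess offsets (span 0.3) for the GC content and length of transcripts, known for 97.3% of genes tested, and leaving out each culture. Positions, lengths and GC content came from GENCODE release 44. Tables and figures were made in Python 3.11.15 with pandas 2.3.3 and matplotlib 3.10.9.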

Additional observations from a re-analysis of the deposited data

How the results depend on the processing

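With the correction for GC content and length, 2849 genes were called (1504 lower and 1345 higher), and 1 of the 9 class I genes, *HLA-B*, at a log2 fold change of -0.23 (edgeR adjusted p 0.042). Leaving out 1 culture at a time gave 530 to 2512 called genes, 233 to 1238 lower and 289 to 1274 higher, with the highest counts without control replicate 2, and 0 of the 9 each time. *HLA-C* ran from -0.14 to 0.10 with 1 culture left out, turning to 0.01 without knockdown replicate 3 and to 0.10 without control replicate 2, and *TAPBP* ran from -0.03 to 0.03, with -0.03 without control replicate 3 and -0.02 under the GC content and length correction. Of 126 log2 fold changes of the 9 genes under the 14 alternatives, 121 kept their direction and their side of the threshold. With no filter on low counts, 848 genes were lower and 879 higher, and with the DESeq2 Wald test 855 and 918. The causes of these shifts were not tested. The replicate number as a block gave 619 lower and 714 higher genes and 0 of the 9, and the calls of *IFNGR1* and *RNF139* were lost. Cultures with the same number did not deviate together, with correlations of -0.199, -0.112 and -0.0438, so the number was not treated as a pairing. The 3 cultures a group limit the precision, and the interval of *HLA-B*, for example, ran from -0.55 to 0.03 with control replicate 2 and from -0.27 to 0.11 without it.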
